A study of Mus musculus with 24 samples.

Results

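Calcium pumps, calcium buffers and the store-operated entry pair were followed through 10 genes of C2C12 muscle tissue, picked by gene name from the 56941 genes listed for each library. They were the sarcoplasmic reticulum pumps Atp2a1 and Atp2a2, the pump regulator Sln, the luminal buffers Casq1, Casq2 and Hrc, the cytosolic buffer Pvalb, the entry genes Stim1 and Orai1, and the plasma membrane pump Atp2b1. All 10 passed the filter on low counts, which 13315 genes passed. C2C12 is an established mouse myoblast line that fuses into contractile myotubes. Every tissue here, controls included, carried the ChR2::tdTomato transgene, a blue-light-gated cation channel fused to a red fluorescent protein. Myoblasts were differentiated in horse-serum medium and grown as aligned monolayers, and 6 libraries each, described as biological replicates, came from unstimulated controls and from tissues exercised with light for 60 min a day at 1, 4 or 10 Hz. The promoter driving the channel and whether the line is 1 clone are not given in the sources used here. The study describes spontaneous contraction in all samples, so the unstimulated controls were not at rest, and no group here received light without the channel.

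Each twitch releases calcium from the sarcoplasmic reticulum, and relaxation depends on pumping it back. SERCA pumps return calcium to the lumen, where calsequestrins and the histidine-rich calcium binding protein hold it. Parvalbumin binds calcium in the cytosol of fast fibers, while STIM1 senses an empty store and opens the ORAI1 channel, and plasma membrane pumps export calcium from the cell. In muscle, exercise and motor nerve activity are known to shift the balance of fast and slow isoforms of these proteins.

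Libraries held 8052369 to 18159144 estimated counts. Of 8 myotube marker genes, 0 fell under 1 TPM in any condition, while the fat cell, endothelial and Schwann or neuronal marker lists each summed to under 1 TPM in every library. Of 3 leukocyte markers 2 stayed under 1 TPM, and Cd68 ran from 55.06 to 102.3 TPM. Of 4 heart markers 2 stayed under 1 TPM, and Myh6 ran from 36.96 to 79.11 TPM. Lists for dividing and for reserve cells had median sums of 22.66 and 11.6 TPM in the controls. The myotube marker Myog averaged 648 TPM in the controls, 221 at 1 Hz and 188 at 4 Hz. Of 2 reserve markers, Myf5 was higher and Pax7 lower at 1 and 4 Hz. Mitochondrial RNA took 1.37% to 2.72% of counts in the controls and 3.97% to 8.90% in 4 stimulated libraries, replicates 4 and 6 at 1 Hz and replicates 3 and 6 at 4 Hz. The same 4 libraries, with replicates 1 and 4 at 4 Hz, had counts tilted toward short genes, measured as a median log2 ratio of CPM to TPM more than 0.15 above the control mean (here the length factor). RNAs without a poly(A) tail (Rmrp, Rpph1, Rn7sk and Rn7s1, 4 of 5 tested) were higher at 1 and 4 Hz, with median log2(fold change) 2.15 and 2.39, and 0 of 5 were called at 10 Hz. Some low-input samples were ribodepleted rather than poly(A)-selected, and which ones is not stated.

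The members lie on 7 chromosomes of GRCm39. Atp2a1 (ENSMUSG00000030730) occupies chr7:126045013-126063423 on the minus strand and Atp2a2 (ENSMUSG00000029467) chr5:122591575-122640903 on the minus strand. Casq1 (ENSMUSG00000007122) lies at chr1:172037459-172049328, minus strand, Casq2 (ENSMUSG00000027861) at chr3:101993234-102056307, plus strand, and Hrc (ENSMUSG00000038239) at chr7:44984681-44988401, plus strand. Stim1 (ENSMUSG00000030987) spans chr7:101916979-102086526 and Orai1 (ENSMUSG00000049686) chr5:123153043-123168535, both on the plus strand. Atp2b1 (ENSMUSG00000019943) spans chr10:98750268-98862488 on the plus strand, Sln (ENSMUSG00000042045) chr9:53742537-53761846 on the plus strand, and Pvalb (ENSMUSG00000005716) chr15:78075314-78091149 on the minus strand. GENCODE M39 places another gene on the opposite strand over 5 members, Rabep2 over Atp2a1, Anapc7 with unnamed models over Atp2a2, and gene models over Casq1, Stim1 and Orai1. On the same strand, 2 gene models overlap Atp2a2 and 2 overlap Casq2. The study names a directional library kit, but how counting used the strand is not given in the sources used here. Reads in all those stretches therefore cannot be assigned with certainty.

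Of the 10 members, 8 had a promoter window in the RefSeq table used, 250 bases before to 50 bases after the annotated start. The letters CAGCTG, an E-box that MyoD-family factors are known to bind and a palindrome that reads the same on both strands, stood in the windows of 4 members (Casq1, Atp2a1, Hrc and Orai1) and in 16.3% of all 32851 windows. The looser CANNTG, which includes CAGCTG, was in at least 1 window of each of the 8 members and in 72.3% of all windows. The MEF2 consensus was in 0 of the 8 and in 0.56% of all windows. Member counts are per gene over 10 windows, whereas the shares are per window. Pvalb held CANNTG only in its window 2165 bases downstream of the GENCODE canonical start, and its window 2 bases from that start lacked it. The Atp2b1 window at 738 bases lacked it too. The sequences of the 4 members with CAGCTG are shown because they hold the same letters. Casq1, Atp2a1 and Hrc had their lowest median CPM at 10 Hz, and Orai1 did not. Casq2, Stim1 and Pvalb also had their lowest median at 10 Hz, and their windows lacked CAGCTG. A match is a description and not a binding site. Capitals mark CAGCTG, each sequence runs 5′ to 3′ on the strand of its gene, and positions are relative to the RefSeq start. Coordinates come from the single exact match of each RefSeq window (GRCm38.p6) in GRCm39. For Casq1 and Atp2a1 the RefSeq start lay 290 and 699 bases downstream of the GENCODE canonical start. The stretches printed for these genes therefore lie inside the gene spans given above.
Casq1, position -195, chr1:172047640-172047669, minus strand: gggggaaggaacCAGCTGctgggagggagc
Atp2a1, position -55, chr7:126062283-126062312, minus strand: cctcataaggacCAGCTGggggctgggggg
Hrc, position -22, chr7:44984443-44984680, plus strand: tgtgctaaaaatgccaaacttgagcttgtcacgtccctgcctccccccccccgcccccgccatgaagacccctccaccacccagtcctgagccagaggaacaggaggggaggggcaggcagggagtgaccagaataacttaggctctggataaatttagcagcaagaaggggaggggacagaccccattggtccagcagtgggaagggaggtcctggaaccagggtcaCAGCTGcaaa
Orai1, position -246, chr5:123152887-123153042, plus strand: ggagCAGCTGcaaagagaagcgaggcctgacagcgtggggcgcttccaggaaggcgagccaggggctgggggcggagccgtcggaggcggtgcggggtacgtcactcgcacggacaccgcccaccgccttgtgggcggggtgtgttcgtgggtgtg

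In unstimulated controls, Atp2a1, the fast-twitch SERCA, had the highest level of the 10 per length at 724 ± 55.9 TPM (SD, n = 6). Atp2a2, the slow-twitch and housekeeping SERCA, followed at 524 ± 43.2 TPM, and Casq2, the slow and cardiac calsequestrin, at 473 ± 47.8 TPM. The ranges of Atp2a2 and Casq2 overlapped, whereas every other pair of neighbors in the order had ranges that did not. Casq1, the fast skeletal calsequestrin, came next at 191 ± 30.9 TPM, then Hrc at 104 ± 6.78 TPM and Atp2b1 at 88.0 ± 8.94 TPM. Stim1 was at 40.0 ± 2.62 TPM and Orai1 at 30.0 ± 2.89 TPM. Pvalb, a marker of mature fast fibers, was low at 11.5 ± 4.01 TPM. Sln, which encodes a small peptide that inhibits SERCA, was lowest at 1.67 ± 0.248 TPM and rested on 3 to 26 counts per library over all conditions, so its values carry little precision.

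**Figure D1:**
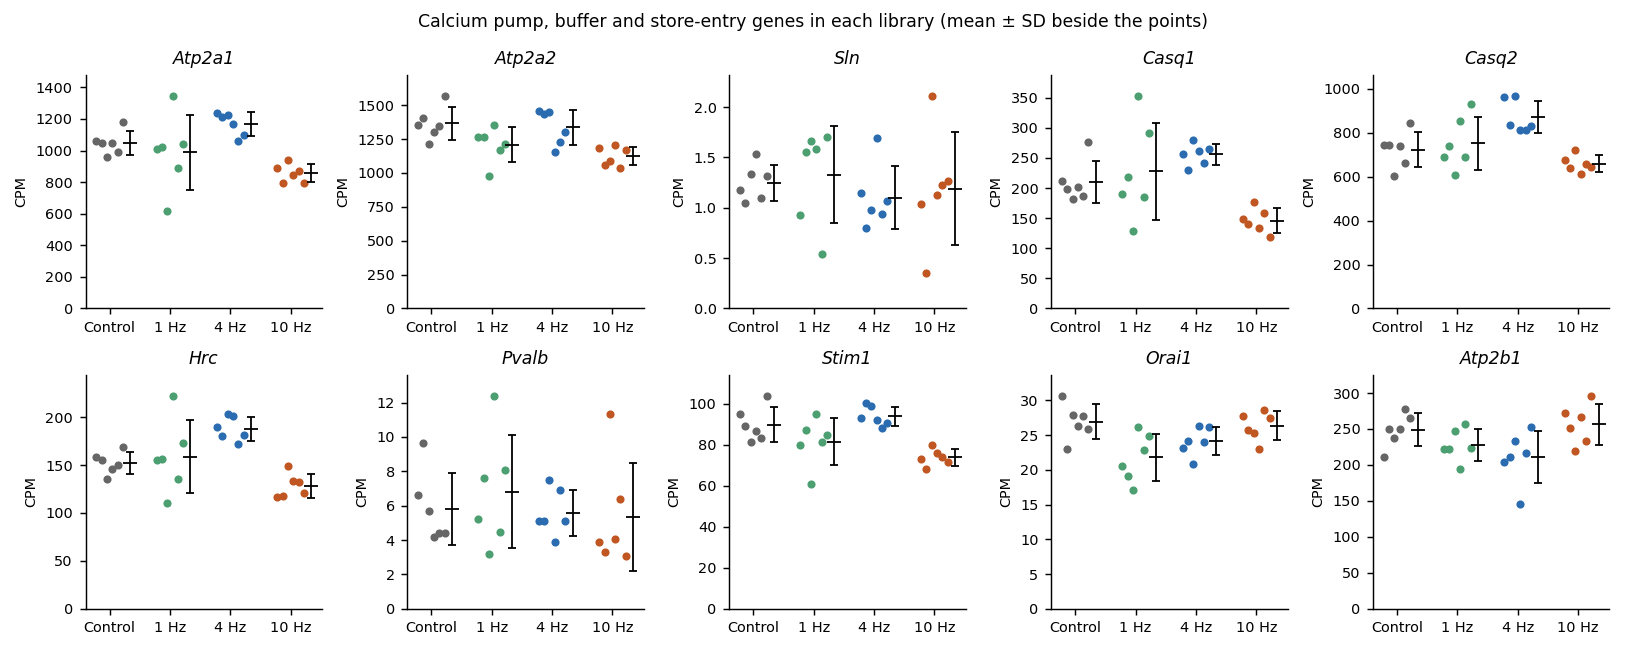
Level of each of the 10 members (CPM, counts scaled to library size after TMM, linear axis from 0) in each of the 24 libraries by condition, with the mean ± SD of 6 libraries beside the points. The 6 libraries at 10 Hz lie below all 6 controls for Atp2a1, Atp2a2, Casq1 and Stim1, and the 6 libraries at 4 Hz lie above all controls for Hrc.

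Changes against the unstimulated control were first tested on TMM-scaled counts with edgeR's quasi-likelihood test, and a gene was called at a Benjamini-Hochberg adjusted p under 0.05 over all 13315 genes. At 1 Hz, 0 members were upregulated, against 19.2% of all genes, and 1 was downregulated, against 18.1%. At 4 Hz, 2 were upregulated, against 27.5% of all genes, and 1 was downregulated, against 23.9%. At 10 Hz, 0 were called in either direction, where only 0.015% of all genes were upregulated and 0.0225% downregulated. An unadjusted p under 0.05 was found there for 5 members and for 1074 of all 13315 genes. The 3 comparisons share the same 6 controls. At 1 Hz, 0 members had all libraries above or all below every control, where 5.55% of all genes lay wholly above and 8.58% wholly below. At 4 Hz, 1 member lay wholly above and 0 below, where 12.9% and 14.7% of all genes did. At 10 Hz, 4 members lay wholly below the controls, where 0.864% of all genes did so and 0.774% lay wholly above. In tissue RNA, fewer myotubes and less RNA per myotube cannot be told apart.

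Neither SERCA pump passed this test against the control, and both had their lowest median at 10 Hz. Atp2a1 ran from 962 to 1179.5 CPM in the controls (median 1046.5), 619.8 to 1346 at 1 Hz (median 1018), 1058 to 1238 at 4 Hz (median 1191), and 795 to 939.9 at 10 Hz (median 858). The 1 Hz libraries spread on both sides of the controls, the 4 Hz libraries overlapped them at the upper end, and all 10 Hz libraries were lower than every control. Its log2(fold change) at 10 Hz was -0.29 ± 0.11 (SE), a change of -18.2%, with an adjusted p of 0.456 in edgeR, and at 4 Hz it was 0.16 ± 0.11.

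Atp2a2 ran from 1214 to 1569.6 CPM in the controls (median 1351.5), 975.5 to 1353 at 1 Hz (median 1238), 1153 to 1455.5 at 4 Hz (median 1371.5), and 1039 to 1205 at 10 Hz (median 1130.3). Again the 10 Hz libraries lay below every control, while the 4 Hz libraries did not separate from them. In the fit, its log2(fold change) was -0.28 ± 0.08 at 10 Hz (edgeR adjusted p = 0.213, unadjusted p = 0.00153) and -0.18 ± 0.08 at 1 Hz (edgeR adjusted p = 0.0767). DESeq2 placed Atp2a2 under the threshold in both comparisons, with adjusted p of 0.0467 at 10 Hz and 0.0358 at 1 Hz.

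Sln ran from 1.05 to 1.53 CPM in the controls (median 1.24), 0.536 to 1.71 at 1 Hz (median 1.57), 0.799 to 1.69 at 4 Hz (median 1.02), and 0.356 to 2.11 at 10 Hz (median 1.18). All conditions overlapped, and the 95% interval of its log2(fold change) at 10 Hz reached from -0.64 to 0.50, so neither a loss nor a gain of that size was detectable at this depth.

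Casq1 and Hrc, both luminal buffers, were furthest from the control at 10 Hz and at 4 Hz, respectively. Casq1 ran from 182 to 277 CPM in the controls (median 200.4), 129 to 353 at 1 Hz (median 204), 230.3 to 279.6 at 4 Hz (median 259), and 119 to 177 at 10 Hz (median 144). The 10 Hz libraries all lay below the controls, and the 4 Hz libraries all lay above 5 of the 6 controls. Casq1 had the largest log2(fold change) of the 10 members at 10 Hz, -0.52 ± 0.16, a change of -30.5% with an unadjusted p of 0.00352 that did not survive adjustment in edgeR (adjusted p = 0.300). A fit restricted to the control and 10 Hz groups called Casq1 and Atp2a1 (edgeR adjusted p = 0.0417 for both), and with the length factor as a covariate Casq1 was called as well (adjusted p = 0.0481).

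Casq2 was upregulated at 4 Hz. It ran from 606 to 843 CPM in the controls (median 744), 608 to 933 at 1 Hz (median 715), 812 to 969 at 4 Hz (median 836), and 612 to 723 at 10 Hz (median 649.8). Only 1 control reached into the range of the 4 Hz libraries, and the 10 Hz libraries stayed inside the range of the controls. Its log2(fold change) was 0.27 ± 0.09 at 4 Hz (edgeR adjusted p = 0.0157) and -0.14 ± 0.09 at 10 Hz (adjusted p = 0.770).

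Hrc was upregulated at 4 Hz and was the only member whose 4 Hz libraries all exceeded every control. It ran from 136 to 169 CPM in the controls (median 153), 110.0 to 222 at 1 Hz (median 156), 172 to 203 at 4 Hz (median 186), and 117 to 149 at 10 Hz (median 127). The 1 Hz libraries surrounded the controls on both sides, and 10 Hz overlapped them at the lower end. For Hrc the log2(fold change) was 0.30 ± 0.11 at 4 Hz (edgeR adjusted p = 0.0206) and -0.25 ± 0.11 at 10 Hz (adjusted p = 0.548).

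The calls for Casq2 and Hrc at 4 Hz moved with the make-up of the libraries. Without the 6 libraries with a high length factor, which left 2 libraries at 4 Hz, their log2(fold change) was 0.15 (adjusted p = 0.248) and 0.17 (adjusted p = 0.257) in edgeR. With the length factor as a covariate it was 0.068 and 0.086 (adjusted p = 0.563 for both), and on log2(TPM + 1) it turned to -0.038 and -0.027. Leaving out single libraries also ended the calls, for Casq2 replicate 3 at 4 Hz (adjusted p = 0.0721), control replicate 3 (0.0664) or control replicate 5 (0.0542), and for Hrc replicates 3 or 4 at 4 Hz (0.0678 and 0.0634) or control replicates 3 or 4 (0.0633 and 0.0548), all in edgeR.

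Pvalb ran from 4.15 to 9.62 CPM in the controls (median 5.05), 3.21 to 12.4 at 1 Hz (median 6.40), 3.88 to 7.52 at 4 Hz (median 5.09), and 3.05 to 11.3 at 10 Hz (median 3.97). Its 4 groups overlapped, and its within-group coefficient of variation, 24.1% to 59.3%, was the widest of the 10 members at 10 Hz. No difference was detectable, and the 95% interval at 1 Hz reached from -0.39 to 0.89 on the log2 scale.

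Of the store-entry pair, Stim1 did not pass the edgeR test against the control at any frequency. Stim1 ran from 81.2 to 104 CPM in the controls (median 87.8), 60.7 to 94.7 at 1 Hz (median 83.0), 88.2 to 100.03 at 4 Hz (median 92.6), and 68.1 to 79.8 at 10 Hz (median 73.5). All 10 Hz libraries fell under every control, and those at 1 and 4 Hz overlapped the controls. Its log2(fold change) at 10 Hz was -0.28 ± 0.08, with an adjusted p of 0.213 in edgeR and 0.0487 in DESeq2.

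Orai1 was downregulated at 1 Hz. It ran from 23.0 to 30.6 CPM in the controls (median 27.0), 17.1 to 26.1 at 1 Hz (median 21.7), 20.9 to 26.3 at 4 Hz (median 24.1), and 23.0 to 28.6 at 10 Hz (median 26.6). The 1 Hz range overlapped the lower part of the controls, 4 Hz lay between, and 10 Hz stayed within the range of the controls. For Orai1 the log2(fold change) at 1 Hz was -0.30 ± 0.09, a change of -18.6% (edgeR adjusted p = 0.0149), and this call held under every alternative that was run except the study's rule that the log2(fold change) exceed 0.5 in size. At 4 Hz the value was -0.15 ± 0.09 (adjusted p = 0.174), and 1 Hz and 4 Hz were not shown to differ (adjusted p = 0.566).

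Atp2b1, which exports calcium across the plasma membrane, was downregulated at 4 Hz. It ran from 211 to 278 CPM in the controls (median 249.9), 194 to 256 at 1 Hz (median 223), 146 to 253 at 4 Hz (median 214), and 219 to 296 at 10 Hz (median 259). The 4 Hz range overlapped the controls, and its lowest library was replicate 4. The log2(fold change) at 4 Hz was -0.24 ± 0.10 (edgeR adjusted p = 0.0471), and leaving out any of 7 libraries ended the call (replicates 1, 2 or 4 at 4 Hz or control replicates 2, 4, 5 or 6, with adjusted p from 0.0526 to 0.0963). With the length factor as a covariate the value was -0.13 (edgeR adjusted p = 0.393), and without the libraries with a high length factor it was -0.25 (adjusted p = 0.0750).

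**Figure D2:**
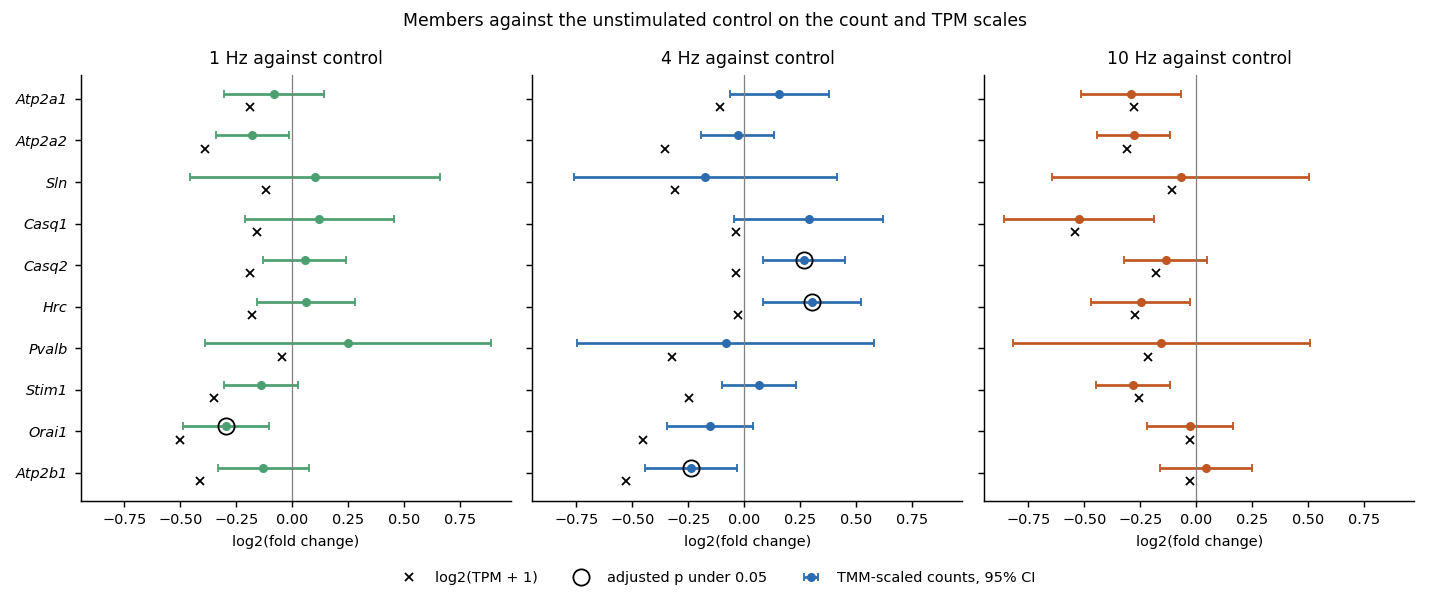
log2(fold change) of each member against the unstimulated control at 1, 4 and 10 Hz (horizontal axis, shared scale), as colored points with 95% confidence intervals from TMM-scaled counts, rings where the adjusted p is under 0.05, and crosses for log2(TPM + 1). At 10 Hz the crosses lie close to the points, and at 1 and 4 Hz they lie to the left of them for every member.

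The choice between counts and TPM shifted all genes at the lower frequencies, and the members with them. On log2(TPM + 1), all genes had a median of -0.14 with 1 Hz and -0.21 with 4 Hz, where TMM-scaled counts gave 0.04 and 0.06, whereas at 10 Hz both medians were near 0 (-0.01 and 0.01). On that scale 10 of 10 members had a log2(fold change) below 0 at both 1 and 4 Hz, and limma called 4 of them lower at 1 Hz (Atp2a2, Stim1, Orai1 and Atp2b1) and 3 at 4 Hz (Atp2a2, Orai1 and Atp2b1). Orai1 was the lowest of the 10 at 1 Hz, -0.50 (limma adjusted p = 0.00234), and Atp2b1 at 4 Hz, -0.53. Among all genes, 2554 upregulated and 2408 downregulated genes at 1 Hz became 481 and 2933 on this scale, and 3664 and 3178 at 4 Hz became 782 and 4818.

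At 10 Hz, where 0 members passed the test, the log2(fold change) was mostly below 0. This held for 9 of 10, all but Atp2b1 at 0.04, with a median of -0.20 beside 0.01 for all genes, and on log2(TPM + 1) all 10 were below 0. Sln, Pvalb and Orai1 changed sign when single libraries were left out. The 8 myotube markers also had a median of -0.20 at 10 Hz with 0 called, among them Ckm at -0.35, Acta1 at -0.13 and, as the only marker above 0, Myh3 at 0.36, and the part of this in the members' values was not tested.

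Direct contrasts between frequencies came from the same fit, in which the controls also set the filter, scaling and dispersion. Between 4 and 1 Hz, 0 members and 0% of all genes were called by edgeR, with 4 members and 1465 genes at an unadjusted p under 0.05. Without the 4 libraries high in mitochondrial RNA, 3 members were called there, beside 493 genes higher and 915 lower of 13434. Between 10 and 1 Hz, 3 members were called (Casq1 and Hrc lower, Orai1 higher at 10 Hz), against 27.9% of all genes. Between 10 and 4 Hz, 7 members were called, against 46.3% of all genes, with 6 lower and 1 higher at 10 Hz. The 10 Hz libraries of Atp2a1, Casq1, Casq2, Hrc and Stim1 all lay below every 4 Hz library, where 8.1% of all genes lay wholly below and 10.8% wholly above.

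Casq1 differed most, with a log2(fold change) of -0.81 ± 0.16 at 10 Hz against 4 Hz, a change of -43.0% (edgeR adjusted p = 0.000394). Hrc followed at -0.55 ± 0.11 (adjusted p = 0.000234), then Atp2a1 at -0.45 ± 0.11 (adjusted p = 0.00178) and Casq2 at -0.40 ± 0.09 (adjusted p = 0.000918). Stim1 was lower by -0.35 ± 0.08 and Atp2a2 by -0.25 ± 0.08 on the log2 scale (edgeR adjusted p = 0.00125 and 0.0123). Atp2b1 went the other way, at 0.28 ± 0.10 (adjusted p = 0.0229), while Sln, Pvalb and Orai1 did not pass the test. On log2(TPM + 1), where the median of all genes was 0.20, limma kept Casq1 and Hrc lower and called Atp2b1 and Orai1 higher at 10 Hz, and Atp2a1 (-0.17), Casq2 (-0.14) and Stim1 (-0.011) did not pass, and Atp2a2 turned to 0.047. Leaving out replicate 3 at 4 Hz ended the edgeR call of Atp2a2 (adjusted p = 0.0508), and leaving out replicate 6 at 10 Hz or replicate 4 at 4 Hz ended that of Atp2b1 (adjusted p = 0.0542 and 0.0533). With the length factor as a covariate Atp2b1 was 0.19 (edgeR adjusted p = 0.226). Without the libraries with a high length factor Atp2b1 was 0.29 and Atp2a2 -0.22, and neither was called (edgeR adjusted p = 0.0550 and 0.119).

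**Figure D3:**
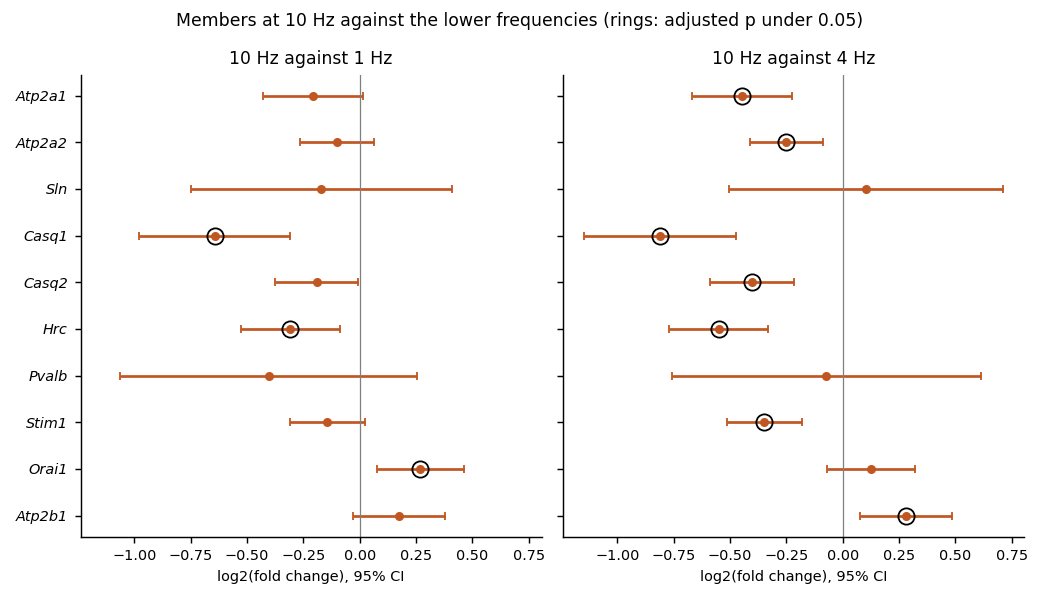
log2(fold change) of the 10 members at 10 Hz against 1 Hz and against 4 Hz (points, with 95% confidence intervals from TMM-scaled counts, 6 libraries per condition), with rings where the adjusted p is under 0.05. Casq1 and Hrc lie below 0 in both panels, and Atp2b1 lies above 0 against 4 Hz.

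Within the 1 Hz group, 2 libraries set the spread. Replicate 4 was the highest for 7 of 10 members and replicate 3 the lowest for 8 of 10. Replicate 4 was also among the libraries high in mitochondrial RNA. Without the 4 such libraries, Casq1 at 10 Hz against 1 Hz fell to -0.32 (edgeR adjusted p = 0.0818) and Hrc to -0.13 (adjusted p = 0.339), and neither was called. Orai1 at 10 Hz against 1 Hz, 0.27 ± 0.09 (edgeR adjusted p = 0.0352), lost its call without any of 7 libraries (replicates 1, 2, 5 or 6 at 10 Hz or 1, 2 or 3 at 1 Hz, adjusted p from 0.0511 to 0.0793). Hrc against 1 Hz, -0.31 ± 0.11 (adjusted p = 0.0333), lost it without replicates 1, 2 or 6 at 10 Hz or 4 or 6 at 1 Hz (adjusted p from 0.0704 to 0.171). It was -0.18 with the length factor as a covariate (adjusted p = 0.205) and -0.094 on log2(TPM + 1) (limma adjusted p = 0.519). With only the 2 groups in the fit, edgeR called neither Hrc nor Orai1 (adjusted p = 0.101 and 0.0774). For comparison, Casq1 against 1 Hz was -0.64 ± 0.16 (adjusted p = 0.00515). Among the controls, replicate 6 was the highest and replicate 3 the lowest of the 6 for the same 6 genes, Atp2a1, Atp2a2, Casq1, Casq2, Hrc and Stim1.

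Isoform balance was compared as shares of TPM within each library, with two-sided exact permutation tests of 6 against 6 libraries, 12 tests in all and 0.00216 the smallest p possible. Casq1 made up 26.9% to 31.5% of calsequestrin TPM (Casq1 plus Casq2) in the controls. With 1 Hz it ran from 22.7% to 37.2%, with 4 Hz from 27.2% to 31.4%, and with 10 Hz from 20.9% to 26.0%. All 10 Hz libraries lay below every control. The mean fell from 28.7% ± 1.87 (SD, n = 6) to 23.8% ± 1.91 at 10 Hz, and this difference of -4.86 percentage points passed the exact permutation test (p = 0.00216, adjusted p = 0.0260). Without control replicate 6 the difference was -4.30 points and the adjusted exact p was 0.0779, where the smallest exact p possible is 0.00433, which becomes 0.0519 after adjustment if no other of the 12 tests reaches it.

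Atp2a1 held 55.2% to 60.4% of SERCA TPM (Atp2a1, Atp2a2 and Atp2a3) in the controls and 59.2% to 67.0% at 4 Hz, with 56.1% to 69.1% at 1 Hz and 53.8% to 63.9% at 10 Hz. The groups overlapped in every comparison. At 4 Hz the mean share was 4.02 points above the control (62.0% ± 2.85 against 58.0% ± 1.75), with an exact permutation p of 0.00866 that missed the threshold after adjustment (0.0519). On counts in place of TPM the share was 3.22 points higher and passed (exact permutation, adjusted p = 0.0130).

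The ratio of Orai1 to Stim1 TPM averaged 0.752 ± 0.0916 without stimulation. With 1 Hz it was 0.670 ± 0.0748, with 4 Hz 0.646 ± 0.0682 and with 10 Hz 0.882 ± 0.0844 (SD, n = 6 each). None of the 3 differences from the control passed the exact permutation test after adjustment (adjusted p = 0.241, 0.143 and 0.113), and the ranges overlapped the controls in each. For Sln over SERCA TPM, the means ran from 0.00108 to 0.00151 and 0 of 3 differences passed (adjusted exact permutation p from 0.241 to 0.843).

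**Figure D4:**
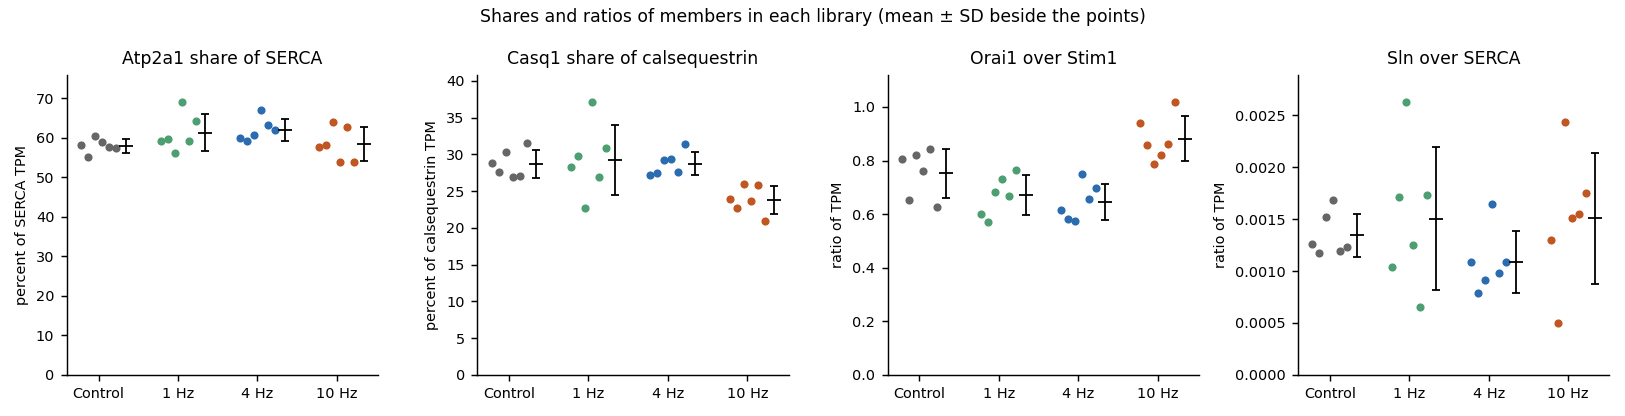
Share of Atp2a1 in SERCA TPM and of Casq1 in calsequestrin TPM (percent), and the TPM ratios of Orai1 to Stim1 and of Sln to SERCA, in each library by condition, with the mean ± SD of 6 libraries beside the points and linear axes from 0. The Casq1 share at 10 Hz, 20.9% to 26.0%, lies below all controls.

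Other calcium-handling genes were taken from 8 groups of 52 genes, 50 of them in the files and 38 tested. At 1 Hz, 14 were upregulated and 2 downregulated, at 4 Hz 17 and 5, and at 10 Hz 0 of 38 were called, with medians of 0.14, 0.16 and 0.00 on the log2 scale beside 0.04, 0.06 and 0.01 for all genes. Of all genes, 19.2% rose and 18.1% fell at 1 Hz, and 27.5% and 23.9% at 4 Hz. On log2(TPM + 1) the balance of the calcium genes turned over, with 1 higher and 3 lower of 37 tested at 1 Hz and 3 higher and 7 lower at 4 Hz. Of 9 genes of luminal proteins, 6 rose at 1 Hz and 5 at 4 Hz on TMM-scaled counts, and 0 fell at either, beside 19.2% and 27.5% of all genes that rose. Calr, the main calcium-binding chaperone of the endoplasmic reticulum, ran from 2420.8 to 2837 CPM in the controls and 3273.5 to 4320.3 at 4 Hz, without overlap, and had a log2(fold change) of 0.39 ± 0.08 at 1 Hz and 0.51 ± 0.08 at 4 Hz. Rcn3, a reticulocalbin of the secretory pathway, changed by 0.32 ± 0.09 and 0.55 ± 0.09. On log2(TPM + 1) neither passed at either frequency (limma adjusted p from 0.0534 to 0.509).

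Partners of the SERCA pumps were upregulated at 4 Hz in 2 of 3 tested genes, beside 27.5% of all genes. Pln, which encodes the SERCA inhibitor phospholamban, rose by 0.54 ± 0.18, and Mrln, which encodes the inhibitor myoregulin, by 0.72 ± 0.27 (edgeR adjusted p = 0.0161 and 0.0305). Without the libraries with a high length factor the values were 0.34 and 0.46 and neither was called (edgeR adjusted p = 0.183 and 0.270). With the length factor as a covariate they were 0.091 and 0.069, and on log2(TPM + 1) 0.32 and 0.39 (limma adjusted p = 0.140 for both). Atp2c1, the Golgi calcium pump, was downregulated at 4 Hz by -0.37 ± 0.07.

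Among store-entry genes other than Stim1 and Orai1, Stim2, a second store sensor, was downregulated at both lower frequencies. It ran from 71.5 to 81.6 CPM in the controls and 46.5 to 58.4 at 4 Hz, without overlap. The change was -0.34 ± 0.07 with 1 Hz and -0.53 ± 0.07 with 4 Hz on the log2 scale, and the 10 Hz libraries (71.7 to 81.6 CPM) overlapped the controls. Saraf, which encodes an inhibitor of store-operated entry, rose by 0.20 ± 0.06 and 0.27 ± 0.06 at 1 and 4 Hz, and Trpc1, a cation channel gene, by 0.35 ± 0.11 and 0.28 ± 0.11. The Saraf values turned to -0.017 and -0.051 on log2(TPM + 1). Trpc1 was at 0.25 and 0.014 on that scale, without a call (limma adjusted p = 0.225 and 0.952). At 4 Hz DESeq2 did not call Trpc1 either (adjusted p = 0.0621).

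Genes of cytosolic sensors and of mitochondrial uptake were called at both lower frequencies. S100a1, a calcium-binding regulator of SERCA and the ryanodine receptor, rose by 0.46 ± 0.15 and 0.69 ± 0.15 at 1 and 4 Hz, and the calmodulin gene Calm2 by 0.27 ± 0.07 and 0.23 ± 0.07. The S100a1 call at 1 Hz ended without replicate 4 (0.30, edgeR adjusted p = 0.101) or replicate 6 (0.32, adjusted p = 0.0889) at 1 Hz, and the value was 0.070 with the length factor as a covariate and 0.19 on log2(TPM + 1). Calm2 was at 0.022 and -0.028 on log2(TPM + 1), and was not called there. At 4 Hz with the length factor as a covariate, S100a1 was 0.18 and Calm2 0.060, and neither was called (edgeR adjusted p = 0.0901 and 0.495). Mcub, the inhibitory subunit of the mitochondrial calcium uniporter, rose by 0.64 ± 0.08 and 0.69 ± 0.08 (edgeR adjusted p = 2.07e-06 and 3.68e-07), with all libraries of both frequencies above every control. Micu2, a gatekeeper of the uniporter, rose by 0.33 ± 0.07 and 0.41 ± 0.07, and was at 0.11 and 0.085 without a call on log2(TPM + 1). Letm1 was downregulated by -0.31 ± 0.09 at both and Micu3 by -0.36 ± 0.13 at 4 Hz. With the length factor as a covariate Micu3 was -0.36 at 4 Hz and was not called (edgeR adjusted p = 0.0662). Of the IP3 receptors, Itpr2 rose at 1 Hz by 0.35 ± 0.13, and of 2 tested plasma membrane genes, 0 were called. Of the 12 fits that each left out 1 library, 8 ended the call of Itpr2, 6 that of Mrln and 6 that of Trpc1 at 4 Hz.

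The genes most like each member over the 24 libraries were found by Pearson correlation of log2 CPM, among genes with a mean log2 CPM of at least 1. These points share condition, depth and library make-up. Casq1 lay closest to Ckmt2, the mitochondrial creatine kinase of muscle (r = 0.97), and Mybpc2, fast myosin-binding protein C (r = 0.965). For Hrc, Coq8a (0.96) was among the closest. Atp2a1 lay closest to Camk2b (0.948) and Adprhl1 (0.943), and Atp2a2 to Srl, which encodes the luminal protein sarcalumenin (0.934), and Cyfip2 (0.875). Stim1 lay closest to Cap2 (0.958) and also to Srl (0.932), and Casq2 to Sgcb (0.942) and Armh4 (0.929). Atp2b1 was most like Larp4 (0.941) and Arhgap5 (0.938), and Orai1 like Atp23 (0.892) and Wsb2 (0.883). The low genes had weaker neighbors, Emc2 (0.765) and Prkag3 (0.764) for Pvalb and Spp1 (0.663) and Cluap1 (0.65) for Sln.

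Among the members, Atp2a1 and Stim1 (r = 0.943) and Casq1 and Hrc (r = 0.936) tracked each other most closely across the 24 libraries. Within conditions, after the mean of each condition was taken off, the correlation of Casq1 and Hrc was 0.902. Atp2b1 ran opposite to Hrc (r = -0.648) and to Casq1 (r = -0.563).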

How the data were processed

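RNA of 24 C2C12 libraries (6 each of Control, 1, 4 and 10 Hz) was analyzed. The authors mapped reads with nf-core/rnaseq (STAR and Salmon, GRCm39; BWA 0.7.12-r1039 and bedtools 2.25.0 also stand in the submitters' notes) and deposited estimated counts per gene, not normalized, and TPM per gene, scaled for transcript length. Estimated counts were rounded, filtered with filterByExpr (minimum 10, total 15), scaled by TMM and tested in edgeR 4.0.16 (R 4.3.3) in 1 quasi-likelihood fit over the 4 conditions. Benjamini-Hochberg adjustment covered 13315 genes. DESeq2 1.42.0 and limma 3.58.1 were alternatives. edgeR and both alternatives were run on counts simulated for the control and 1 Hz groups, with limma on counts scaled to library total. The simulation held no tilt by gene length or mitochondrial RNA, so it cannot speak to results that move with those. The biological coefficient of variation was 14.8%. CPM are TMM-scaled. Values of other genes followed a rule: up to 2 per calcium group and direction by smallest p, and 2 most correlated genes per member. The members and lists were chosen with earlier results of these data known. Positions came from GENCODE M39 and promoters from RefSeq. Arln and Erln were not matched by symbol and are not analysed here.
Shares and ratios of TPM were compared by two-sided exact permutation tests over libraries, with limma on log2(TPM + 1) as the TPM alternative to the count test. Other scalings, filters, covariates and left-out libraries were also tried, and p-values measure the spread between these libraries. Some genes that the rule selects are not reported here.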

Additional observations from a re-analysis of the deposited data

Results flagged for a closer look

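Casq1 reached 277.19 CPM in control replicate 6, which stood further from the other 5 controls than the range of the group allows by Dixon's criterion. The ratio of Sln to SERCA TPM in replicate 4 at 4 Hz, 0.0016449, stood apart in the same way. These were 2 of 56 groups tested, and chance marks about 1 in 20 such groups.

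The effect of 10 Hz differed from that of a lower frequency for several members, by edgeR's test of the difference itself (adjusted p under 0.05). Against 1 Hz, where 27.9% of all genes were called, the difference in log2(fold change) was -0.64 for Casq1, -0.31 for Hrc and 0.27 for Orai1. The calls of Hrc and Orai1 each ended when certain single libraries were left out. Casq1 and Hrc were not called without the 4 libraries high in mitochondrial RNA. Against 4 Hz, where 46.3% of all genes were called, it was -0.81 for Casq1, -0.55 for Hrc, -0.45 for Atp2a1 and -0.40 for Casq2. For Stim1 it was -0.35, for Atp2a2 -0.25 and for Atp2b1 0.28. On log2(TPM + 1), limma did not call Atp2a1, Casq2 or Stim1, and Atp2a2 turned to 0.047. The edgeR calls of Atp2a2 and Atp2b1 each ended when certain single libraries were left out.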

How the results depend on the processing

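Alternatives with the length factor as a covariate, without the 4 libraries high in mitochondrial RNA and without the 6 libraries with a high length factor were chosen after seeing the data, and the cause of the changes below was not tested. With the added requirement of a log2(fold change) over 0.5 in size, the count of members called went from 1 to 0 at 1 Hz, from 3 to 0 at 4 Hz, from 3 to 1 for 10 against 1 Hz and from 7 to 2 for 10 against 4 Hz, and the other calcium genes called went from 16 to 1 at 1 Hz and from 22 to 8 at 4 Hz. The number of all genes passing this rule is not given here. By DESeq2, 2 members were called at 1 Hz and 2 at 10 Hz. Of 27811 genes, DESeq2 called 2466 higher and 2588 lower at 1 Hz, and 21 and 39 at 10 Hz. By limma on log2(TPM + 1) and on log2(TPM + 0.1), 4 members were called at 1 Hz and 4 for 10 against 4 Hz, and 4 and 10 of the other calcium genes at 1 and 4 Hz. Of 13422 genes on log2(TPM + 1), 481 were higher and 2933 lower at 1 Hz. At 4 Hz these were 782 and 4818, and for 10 against 4 Hz 4459 and 679. Without the libraries with a high length factor the members called were 2 at 1 Hz, 0 at 4 Hz and 1 for 10 against 1 Hz, and the other calcium genes 13 at 4 Hz. Of 13723 genes, 2126 were then higher and 2217 lower at 1 Hz, and 1799 and 2415 at 4 Hz. For 10 against 1 Hz, 1509 were higher and 1256 lower. With the length factor as a covariate the members called were 0 at 4 Hz and 1 at 10 Hz. All genes were then 2461 higher and 2344 lower of 13315 at 4 Hz, and 22 and 35 at 10 Hz. With no low-count filter, 1 member was called at 4 Hz and 1 for 10 against 1 Hz. Of 27811 genes, 2720 were then higher and 3217 lower at 4 Hz, and 1721 and 950 for 10 against 1 Hz. With only the 2 groups compared, 2 members were called at 10 Hz and 1 for 10 against 1 Hz. Genes called there were 16 higher and 42 lower of 12867 at 10 Hz, and 1491 and 1107 of 12812 for 10 against 1 Hz. Without the libraries high in mitochondrial RNA the members called were 3 for 4 against 1 Hz and 1 for 10 against 1 Hz. Of 13434 genes, 493 were then higher and 915 lower for 4 against 1 Hz, and 1379 and 1206 for 10 against 1 Hz.

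The share of Atp2a1 on counts was 3.22 points above the control at 4 Hz and -0.209 points from it at 10 Hz. The Casq1 share at 1 Hz turned to -1.79 points both without the mitochondrial-high and without the length-high libraries, and at 4 Hz to -0.766 and -1.13. Values that changed sign at 1 Hz are given in the order length covariate, log2(TPM + 0.1), log2(TPM + 1), without mitochondrial-high libraries, without length-high libraries. Sln gave -0.24, -0.20, -0.12, -0.10 and -0.11. Casq1 gave -0.17, -0.16, -0.16, -0.20 and -0.22. Casq2 gave -0.086, -0.19, -0.19, -0.076 and -0.091. Hrc gave -0.10, -0.18, -0.18, -0.12 and -0.14. Pvalb gave -0.27, -0.056, -0.049, -0.18 and -0.20. At 4 Hz, log2(TPM + 0.1) and log2(TPM + 1) turned Atp2a1 to -0.11 on both, Casq1 to -0.036, Casq2 to -0.038, Hrc to -0.028 and -0.027, Stim1 to -0.25, Calm2 to -0.028 and Saraf to -0.052 and -0.051. The length covariate turned Casq1 to -0.081 and Stim1 to -0.0072, and upper-quartile factors turned Atp2a2 to 0.0011. On both TPM scales Saraf at 1 Hz became -0.017, Atp2b1 at 10 Hz -0.031 and -0.030, and Atp2a2 for 10 against 4 Hz 0.047. Sln was not tested under the strict filter.

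Leaving out 1 library at a time gave 1 to 3 members called at 1 Hz (3 without replicate 4), 1 to 3 at 4 Hz and 1 to 5 for 10 against 1 Hz. Without replicate 4 at 1 Hz, 1812 genes of 13383 were higher and 2302 lower at 1 Hz. Without replicate 3 at 1 Hz, which gave the 5, 1890 genes of 13404 were higher and 1484 lower for 10 against 1 Hz. Without replicate 3 at 4 Hz, which gave 1 member, 3036 genes of 13398 were higher and 3273 lower at 4 Hz. Differences in share ran from 3.01 to 4.58 points for Atp2a1 at 4 Hz and -0.671 to 1.33 at 10 Hz, and for Casq1 from -0.992 to 1.89 at 1 Hz, -0.509 to 0.578 at 4 Hz and -5.29 to -4.28 at 10 Hz. Sln over SERCA ran from -6.52e-05 to 0.00033 at 1 Hz, -0.000372 to -0.000191 at 4 Hz and -2.06e-05 to 0.000367 at 10 Hz. Values of log2(fold change) at 1 Hz ran from -0.21 to 0.0053 for Atp2a1, -0.016 to 0.26 for Sln, -0.071 to 0.22 for Casq1, -0.044 to 0.10 for Casq2, -0.083 to 0.13 for Hrc and -0.050 to 0.47 for Pvalb. At 4 Hz they ran from -0.086 to 0.013 for Atp2a2 and -0.21 to 0.14 for Pvalb. At 10 Hz they ran from -0.29 to 0.10 for Sln, -0.51 to 0.063 for Pvalb, -0.070 to 0.012 for Orai1 and -0.00061 to 0.084 for Atp2b1.

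Replicate numbers are shared across conditions but did not pair the libraries: over 36 same-numbered pairs the correlation of deviations ran from -0.332 to 0.242, and 0 of 24 libraries correlated best with their own number. With the replicate block, the Casq1 share difference at 10 Hz was -4.86 points with an exact p of 0.0312, the smallest that 6 pairs allow, and an adjusted p of 0.125, so it says nothing about stability. Hrc for 10 against 1 Hz was -0.29 (edgeR adjusted p = 0.0535), and 2 in place of 3 members were called for 10 against 1 Hz. In that blocked fit 1865 genes of 13315 were higher and 1410 lower for 10 against 1 Hz. Sln and Pvalb are limited by depth, with as few as 3 and 28 counts in a library.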
